A study of Homo sapiens with 15 samples.

Results

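The genes described are 10 human genes that buffer, sense or transport zinc: the metallothioneins MT1E, MT1F, MT1G, MT1M, MT1X and MT2A, the transcription factor MTF1, and the transporters SLC30A1, SLC39A8 and SLC39A14. They were taken by symbol from the 60649 human gene rows of the count table, and each of the 10 matched 1 row. The RNA came from 15 subcutaneous tumours grown from A549 cells, a human lung adenocarcinoma line in wide use, in BALB/c nude mice, a strain without mature T cells that keeps macrophages and other innate cells. The no-stress group (n = 5) carried tumours in mice that were not restrained. The stress group (n = 5) came from mice restrained 7 days before transplantation, and the post-stress group (n = 5) from mice restrained 12 days after it. The labels do not say whether these days are durations or starting points, and they give no age or sex. All groups share the cell line and the host strain. The mice in each group are given as 5, but no label says outright that each library is its own mouse, so p-values measure the spread between these tumours.

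Metallothioneins are small cysteine-rich proteins that bind zinc and copper through clusters of thiol groups and hand zinc on to other proteins. MTF1 binds zinc and then metal response elements in promoters, where it induces metallothionein genes and SLC30A1, the zinc exporter of the plasma membrane. SLC39A8 and SLC39A14 move zinc, manganese and iron into the cytosol. Glucocorticoids, interleukin-6 acting through STAT3, hypoxia and metals are known inducers of metallothioneins, and in the lung these proteins are known for defence against metals and oxidants.

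The metallothioneins are near copies of each other, which bears on how reads could be counted. The first 60 coding bases of 5 of them are printed to show how few positions separate the copies. They are from the GENCODE transcripts (GRCh38, chromosome 16) and span the first 2 exons, and capitals mark bases that differ from MT2A.

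MT2A: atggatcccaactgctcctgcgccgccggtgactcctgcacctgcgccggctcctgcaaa

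MT1E: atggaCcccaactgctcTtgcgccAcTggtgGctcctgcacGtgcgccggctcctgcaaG

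MT1F: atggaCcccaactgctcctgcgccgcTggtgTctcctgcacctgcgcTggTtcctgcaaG

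MT1X: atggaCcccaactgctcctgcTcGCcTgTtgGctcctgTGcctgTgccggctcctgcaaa

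MT1M: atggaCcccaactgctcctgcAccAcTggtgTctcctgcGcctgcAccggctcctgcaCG

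Within these 60 bases MT1E differed from MT2A at 7 positions, MT1F at 6, MT1X at 10 and MT1M at 9. Over the coding sequence of 186 bases, identity to MT2A was 92.5% for MT1E and MT1X, 91.4% for MT1F and 89.8% for MT1M. MT1G has a coding sequence of 189 bases and was left out of this ungapped comparison. The untranslated ends differ more. When every stretch of 100 bases in the annotated transcripts was looked up in all other human genes, MT2A, MT1E, MT1F, MT1G and MT1M shared 0% of their stretches. Mouse transcripts were not searched, so likeness to the metallothioneins of the host was not measured. At 50 bases the shared part was 3.02% for MT2A, 7.10% for MT1E, 1.22% for MT1F, 9.87% for MT1M, 16.5% for MT1G and 18.3% for MT1X. MT1X kept 11.3% at 100 bases, all of it shared with AC026461.1, a transcript annotated over 18.1% of its exon bases on the same strand. AC026461.1 had 0 counts in all 15 libraries. The sources used here do not give read length, strandedness or the treatment of reads with several matches, so the split of counts between copies is uncertain.

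The stretches before the starts of MT2A, MT1X and SLC30A1 are printed because MTF1 is known to act on these genes, and because their RNA moved in opposite directions in the stress tumours. They are the 250 bases upstream of the RefSeq start (GRCh38.p14), read 5′ to 3′ on the strand of the gene. Capitals mark the core of the metal response element, searched as TGCACNC and TGCGCNC on both strands. For MT2A the stretch is chr16:56608334-56608583 on the plus strand, for MT1X chr16:56682220-56682469 on the plus strand, and for SLC30A1 chr1:211579162-211579411 on the minus strand.

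MT2A: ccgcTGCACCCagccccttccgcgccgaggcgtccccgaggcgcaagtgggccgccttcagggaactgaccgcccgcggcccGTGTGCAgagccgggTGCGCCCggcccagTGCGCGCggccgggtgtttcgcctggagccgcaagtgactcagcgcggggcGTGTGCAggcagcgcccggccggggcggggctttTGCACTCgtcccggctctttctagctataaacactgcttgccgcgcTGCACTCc

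MT1X: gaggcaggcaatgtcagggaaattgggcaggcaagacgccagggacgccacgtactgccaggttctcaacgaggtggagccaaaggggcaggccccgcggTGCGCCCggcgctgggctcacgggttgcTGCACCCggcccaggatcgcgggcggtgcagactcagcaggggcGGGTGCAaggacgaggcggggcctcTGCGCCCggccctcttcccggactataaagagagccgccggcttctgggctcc

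SLC30A1: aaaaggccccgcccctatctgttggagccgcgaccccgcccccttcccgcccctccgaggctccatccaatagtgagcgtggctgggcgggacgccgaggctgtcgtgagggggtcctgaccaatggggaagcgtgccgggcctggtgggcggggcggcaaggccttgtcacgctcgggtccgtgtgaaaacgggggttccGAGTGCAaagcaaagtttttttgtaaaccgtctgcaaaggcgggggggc

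With the 50 bases after the start included, the MT2A window held 8 cores, the MT1X window 4 and the SLC30A1 window 2. Of 35116 promoter windows of this length, 0.0199% held at least 8 cores, 0.601% at least 4, 8.60% at least 2 and 29.6% at least 1. Promoters of 5 of the 10 genes are in the table used. That of MTF1 held 0 cores, and the windows at the 3 starts of SLC39A8 held 0, 0 and 1. MT1H, a neighbour with 8 cores, had 0 counts in all 15 libraries. The glucocorticoid receptor core AGAACA, found in 14.8% of windows, was in none of the 3 stretches on either strand. Only these exact letters were searched, and only within these windows. Sites with other letters or farther upstream would be missed, so the absence does not show that these genes lack a glucocorticoid receptor site. The AP-1 site TGACTCA, found in 4.95% of windows, occurred 1 time in the MT2A window, and the hypoxia core ACGTG, found in 21.4%, 1 time in that of MT1X. These are matches of letters, and none was tested for binding. The RefSeq starts differ from the GENCODE starts used elsewhere here. By GENCODE the MT2A stretch lies inside the gene, while the SLC30A1 stretch lies wholly upstream of the start at base 211578742. The core counts therefore compare unlike positions by that annotation.

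The libraries held 16729091 to 19680449 counts each, of which 12877165 to 15892705 were on human genes. The share of mouse counts, from host cells, ranged over 15.6–30.2% in no-stress, 18.6–24.6% in stress and 12.4–23.0% in post-stress tumours, and was highest in no-stress replicates 1 and 5. Levels are CPM, the usual scaling of counts to the human total of a library, adjusted with trimmed means of M values (TMM). Of the 10 genes, 8 passed the filter on low counts, as did 15435 human genes in all. Of 8 genes that mark A549 and lung epithelium, KRT19 was under 1 CPM in every tumour, and the list summed to 12773–17318 CPM. In any comparison 0 of 7 tested were changed, beside 10.5% of all genes in stress and 0.842% in post-stress tumours. The median log2 fold change of the 7 in stress was -0.24, from -0.75 for ALDH1A1 to 0.30 for KRT18. So short a list cannot show that identity was stable. Of 21 leukocyte and stroma genes on the human side, 12 were under 1 CPM in every tumour, among them PTPRC and CD68. None was at 0 throughout, and 0 of 8 tested changed in any comparison, beside the same shares of all genes. Others of the list were higher, with COL1A1 at means of 120, 106 and 101 CPM in no-stress, stress and post-stress tumours. DCN was at 8.36, 22.9 and 14.7 CPM, and PECAM1 at 15.8, 12.8 and 14.7 CPM. The origin of these counts was not tested. The whole list summed to 123–220 CPM in no-stress, 130–186 in stress and 95.05–232 in post-stress tumours.

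Against no-stress tumours, 4 metallothioneins and the importer SLC39A14 rose in stress tumours and the exporter SLC30A1 fell, while MTF1 and SLC39A8 did not pass the test. In post-stress tumours MT1X, MT1E and SLC39A14 rose, and the other 5 tested genes did not pass. A gene was called changed at an adjusted p under 0.05 in edgeR's quasi-likelihood test with Benjamini-Hochberg adjustment over all 15435 genes. Thus 6 of the 8 tested genes were changed in stress tumours, beside 10.5% of all human genes (5.23% higher, 5.22% lower). In post-stress tumours 3 of 8 were changed, beside 0.842% of all genes (0.596% higher, 0.246% lower). The median log2 fold change of the 8 was 0.65 in stress and 0.58 in post-stress tumours, where that of all genes was -0.01 in both. Both comparisons share the no-stress tumours. The genes of the set were chosen with earlier results of these data known, so these shares and medians are descriptions and carry no test. The 4 metallothioneins are near copies whose split of counts is uncertain, so their calls may not be independent of each other. In tumour RNA, fewer cells of a kind and less RNA per cell cannot be told apart.

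**Figure D1:**
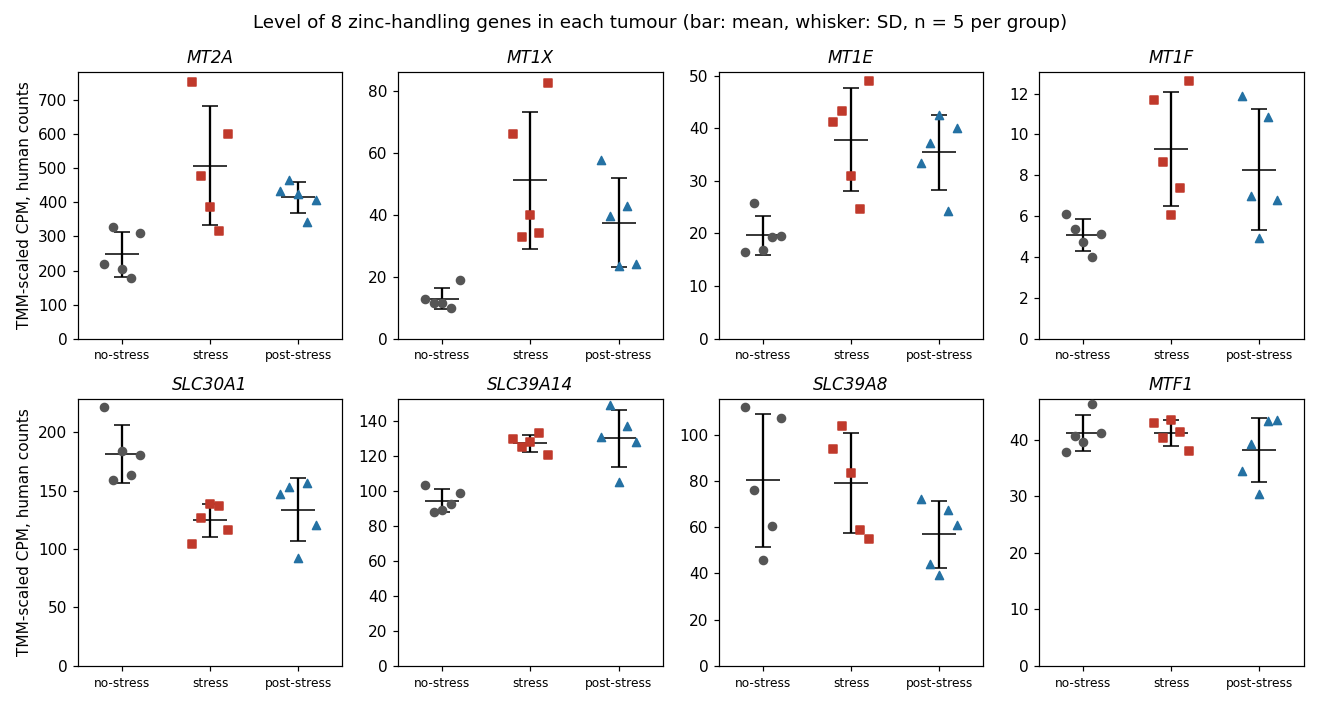
Level of the 8 tested genes in each tumour, as TMM-scaled CPM within human counts on axes that start at 0, with points for tumours in order of replicate number, bars for the mean and whiskers for the SD (n = 5 per group). MT1X and SLC39A14 lie above the no-stress range in every restrained tumour and SLC30A1 below it.

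MT2A was the most abundant metallothionein. Its CPM in no-stress tumours 1 to 5 was 220, 327, 204, 178 and 310. In stress tumours it was 755, 479, 386, 317 and 602, and in post-stress tumours 433, 467, 424, 344 and 408. All post-stress tumours and 4 of 5 stress tumours were above the highest no-stress tumour, and stress replicate 4 fell inside the no-stress range. The means were 248 ± 66.5 CPM (SD, n = 5) without stress, 508 ± 175 with stress and 415 ± 45.3 in the post-stress group. The log2 fold change in stress tumours was 1.03 (SE 0.22, adjusted p = 0.0106), a 2.05-fold rise. In post-stress tumours it was 0.74 (SE 0.22) with an adjusted p of 0.123, which did not pass although the groups did not overlap. DESeq2's Wald test called it, with an adjusted p of 0.0133. The coefficient of variation was 26.8% in no-stress, 34.4% in stress and 10.9% in post-stress tumours.

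MT1X had the largest fold change of the 8 genes against no-stress tumours. Its no-stress values were 12.8, 11.4, 11.5, 9.88 and 18.9 CPM. Stress tumours gave 66.0, 32.8, 40.0, 34.1 and 82.4 CPM, and post-stress tumours 57.5, 39.5, 23.4, 42.7 and 24.0 CPM. Every tumour of both restrained groups was above every no-stress tumour. Means were 12.9 ± 3.51, 51.1 ± 22.1 and 37.4 ± 14.2 CPM. The rise was 3.96-fold in stress tumours (log2 fold change 1.99, SE 0.33, adjusted p = 0.00421). In post-stress tumours it was 2.91-fold (log2 fold change 1.54, SE 0.33, adjusted p = 0.0468). The stress call held in all 15 fits that left out 1 library. The post-stress call was lost in 9 of them, with adjusted p from 0.0529 to 0.138, and was kept without no-stress 5, without stress 2, 4 or 5, and without post-stress 3 or 5.

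MT1E, a metallothionein without a counterpart of that name in mice, had the profile most like that of MT2A among the 10 genes. Its no-stress values were 16.5, 25.8, 16.9, 19.4 and 19.5 CPM. It reached 41.3, 43.2, 31.0, 24.7 and 49.1 CPM in stress tumours and 33.4, 37.3, 42.5, 24.2 and 40.1 CPM in post-stress tumours. In each restrained group 4 of 5 tumours were above the highest no-stress value, and replicate 4 was not. Group means were 19.6 ± 3.72, 37.8 ± 9.85 and 35.5 ± 7.17 CPM. The log2 fold change was 0.95 (SE 0.19, adjusted p = 0.00736) in stress and 0.85 (SE 0.19, adjusted p = 0.0468) in post-stress tumours. The stress call was lost with both species in 1 fit and without no-stress replicates 1 and 5 together. The post-stress call was lost in 11 of 15 fits that left out 1 library, with adjusted p from 0.0537 to 0.144. It was kept without no-stress 2, stress 4, stress 5 or post-stress 4.

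MT1F was lower in abundance, with 56 to 179 counts per library. It stood at 6.11, 5.39, 4.71, 4.01 and 5.13 CPM in no-stress tumours. Stress tumours had 11.7, 8.65, 6.06, 7.37 and 12.6 CPM, and post-stress tumours 11.9, 6.98, 4.91, 10.8 and 6.77 CPM. In each restrained group 4 of 5 tumours exceeded the no-stress range. The log2 fold change was 0.87 (SE 0.24, adjusted p = 0.0300) in stress and 0.71 (SE 0.24, adjusted p = 0.172) in post-stress tumours. The stress call was lost without no-stress 3, no-stress 4, stress 1 or stress 5, with adjusted p of 0.0701, 0.0602, 0.0803 and 0.0768. It was also lost with limma-voom (adjusted p = 0.0515), with both species in 1 fit (0.115) and without no-stress replicates 1 and 5 (0.0830).

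MT1G and MT1M were not measurable. MT1M had 0 counts in all 15 libraries, which allows a level of up to 0.189–0.233 CPM depending on the library (3 counts, counting error only). MT1G had 1 count, in post-stress replicate 2, and 0 in the other 14 libraries. Neither was tested.

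Of the 15 other metallothionein rows, 5 were at 0 in all libraries (MT1H, MT1HL1, MT1IP, MT2P1 and MT4). Another 6 stayed under 1 CPM (MT1B, MT1CP, MT1JP, MT1P1, MT1P3 and MT3), and MT1DP and MT1XP1 reached at most 1.28 and 1.41 CPM. MT1L, a transcribed pseudogene that lies between MT2A and MT1E, rose from 9.04 ± 1.84 to 14.7 ± 4.51 CPM in stress tumours (log2 fold change 0.70, adjusted p = 0.0291). The lowest stress tumour, at 10.9 CPM, was above the highest no-stress tumour, at 10.4. Its post-stress mean was 13.5 ± 2.02 CPM (adjusted p = 0.160), and the lowest post-stress tumour, at 11.4 CPM, was also above every no-stress tumour. Of all genes 4.09% lay wholly above the no-stress range in stress and 1.57% in post-stress tumours. MT1A, a coding gene of the same cluster, was at 7.56 ± 2.03, 8.51 ± 2.23 and 8.50 ± 0.687 CPM, and its groups overlapped (adjusted p = 0.629 in stress). Of the 4 tested rows in this set, MT1L was changed in stress against no-stress tumours, beside 5.23% of all genes called higher. None passed in the other comparisons.

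**Figure D2:**
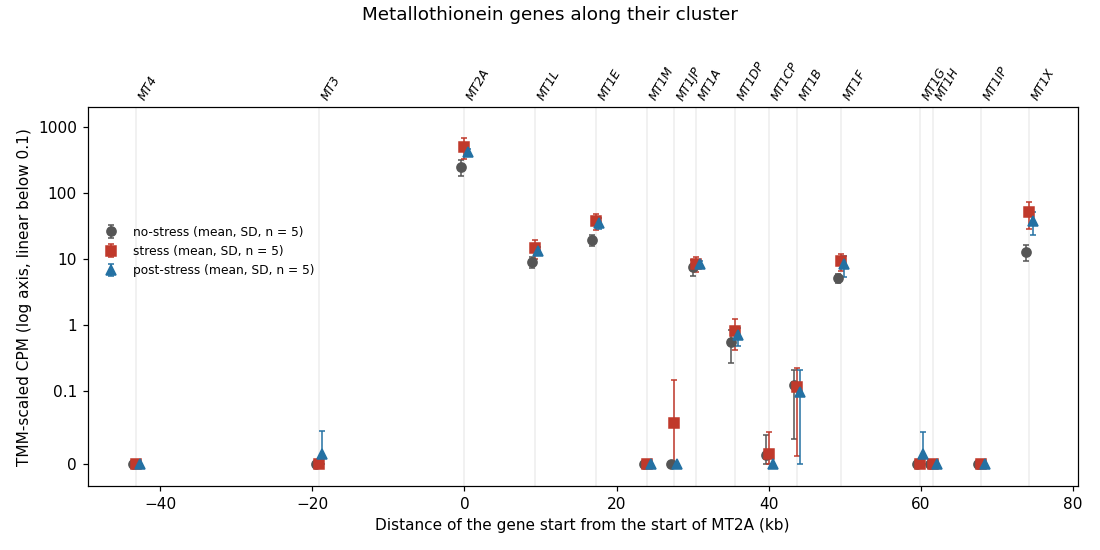
Mean level of the metallothionein genes on chromosome 16 by the distance of the gene start from that of MT2A in kb, with whiskers for the SD (n = 5 per group, cut at 0) on an axis that is logarithmic above 0.1 CPM. MT2A, MT1L, MT1E, MT1F and MT1X have higher means in the restrained groups, MT1A differs little, and most rows between them are at or near 0.

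Expression was thus uneven along the cluster. The cluster runs from MT4 to MT1X on chromosome 16 (GENCODE, GRCh38), with MT2A at 56608199-56609497, MT1E at 56625475-56627112, MT1M at 56632233-56633986, MT1F at 56657694-56660698, MT1G at 56666731-56668065 and MT1X at 56682424-56684196. MT1G alone of the 6 is on the minus strand. MT1E and MT1F, both expressed, lie on each side of MT1M, MT1A and MT1B, of which only MT1A was above 1 CPM.

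The 21 metallothionein rows together gave 232–382 CPM in no-stress, 401–907 in stress and 444–573 in post-stress tumours. No restrained tumour was as low as the highest unrestrained one. MT2A made up 76.8–85.7% of this sum in no-stress tumours, 77.3–83.3% in stress and 77.0–81.5% in post-stress tumours. The share of MT1X in the sum was 2.98–5.06% without stress, 5.60–10.6% with stress and 4.50–10.2% in post-stress tumours. Stress tumours lay wholly above the no-stress range in this share, whereas post-stress replicates 3 and 5 lay inside it. The ratio of MT1X to MT1E was 0.441–0.969 without stress, 0.758–1.68 with stress, and in post-stress tumours 1.72, 1.06, 0.551, 1.77 and 0.600. Post-stress replicates 3 and 5 therefore had MT1E at 42.5 and 40.1 CPM, the highest of their group, with MT1X at 23.4 and 24.0 CPM, the lowest. These shares and ratios are descriptions and were not tested.

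MTF1, the zinc sensor that induces metallothioneins, did not pass the test in either comparison with no-stress tumours. It was at 37.9, 40.7, 39.6, 46.3 and 41.1 CPM in no-stress tumours and at 43.0, 40.2, 43.4, 41.3 and 37.9 CPM in stress tumours. Post-stress tumours gave 34.5, 39.1, 30.4, 43.3 and 43.5 CPM. All stress tumours were inside the no-stress range. The log2 fold change in stress was 0.00 with a 95% interval from -0.20 to 0.20 (adjusted p = 0.995), and in post-stress -0.11 with an interval from -0.31 to 0.09 (adjusted p = 0.637). RNA does not measure the zinc binding or location of the protein.

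SLC30A1, the exporter and itself a known MTF1 target, moved opposite to the metallothioneins in stress tumours. No-stress tumours had 222, 159, 184, 163 and 181 CPM. Stress tumours had 105, 126, 139, 137 and 116 CPM, and post-stress tumours 147, 153, 92.1, 156 and 121 CPM. Every tumour of both restrained groups was below the lowest no-stress tumour. Means were 182 ± 24.9, 125 ± 14.3 and 134 ± 27.3 CPM. In stress tumours SLC30A1 fell by 0.54 on the log2 scale (SE 0.13, adjusted p = 0.0168). The post-stress log2 fold change was -0.44 (SE 0.13, adjusted p = 0.123), which did not pass in edgeR, and DESeq2's Wald test gave an adjusted p of 0.04998, just under the threshold. The stress call was lost without no-stress replicate 1, the highest value and the library with the highest mouse share (adjusted p = 0.0571), and without stress replicate 1 (adjusted p = 0.0513). It was also lost with both species in 1 fit and without no-stress replicates 1 and 5 together.

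**Figure D3:**
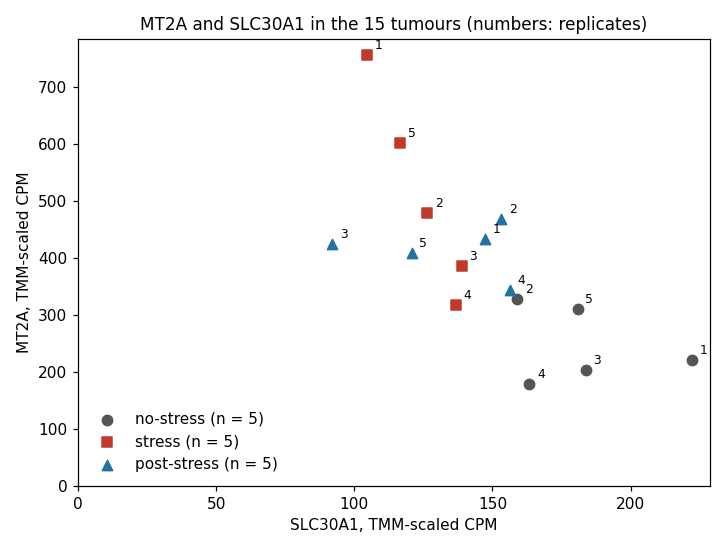
MT2A against SLC30A1 in the 15 tumours, both as TMM-scaled CPM on axes from 0, with replicate numbers beside the points. No-stress tumours lie to the lower right, with MT2A at 178–327 and SLC30A1 at 159–222 CPM, and stress replicates 1 and 5 lie at the top left.

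The plot of MT2A against SLC30A1 sets both levels side by side in each tumour. The ratio of MT2A to SLC30A1, in CPM, was 0.992–2.06 in no-stress, 2.32–7.23 in stress and 2.202–4.61 in post-stress tumours. The no-stress range overlapped neither of the others. Among stress tumours, replicates 1 and 5 had the 2 highest MT2A values and the 2 lowest SLC30A1 values. Post-stress replicate 3 had the lowest SLC30A1 of all 15 tumours, 92.1 CPM, with MT2A at 424 CPM, near the middle of its group. Other tumours did not show this: post-stress replicate 2 had the highest MT2A of its group, 467 CPM, with SLC30A1 at 153 CPM, and no-stress replicate 4 had the lowest MT2A, 178 CPM, with SLC30A1 at 163 CPM. Of 9 other SLC30 genes, 5 were tested and 0 changed in any comparison, beside 10.5% of all genes in stress and 0.842% in post-stress tumours. Their log2 fold changes in stress had a median of 0.12, and in post-stress of 0.03. SLC30A5, a transporter of the early secretory pathway, was at 77.5 CPM in no-stress and 75.1 in stress tumours, and SLC30A9, a mitochondrial zinc transporter, at 65.7 and 71.3 CPM.

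SLC39A14 is an importer known to be induced by interleukin-6 in liver. It was at 104, 88.0, 89.5, 92.7 and 99.1 CPM in no-stress tumours. It reached 130, 125, 128, 134 and 121 CPM in stress tumours and 131, 150, 105, 138 and 128 CPM in post-stress tumours. All 10 restrained tumours were above all no-stress tumours, and stress tumours spread little, with a coefficient of variation of 3.75%. The mean rose from 94.6 ± 6.62 to 128 ± 4.79 CPM with stress (log2 fold change 0.43, SE 0.083, adjusted p = 0.00529) and to 130 ± 16.3 CPM in post-stress tumours (0.46, SE 0.083, adjusted p = 0.0119). Both calls held in every fit that left out 1 library. With human and mouse genes scaled together, the stress call was lost (adjusted p = 0.0836), as was the post-stress call when only those groups were fitted (adjusted p = 0.0537).

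SLC39A8, the closest relative of SLC39A14, differed more between tumours of a group than between groups. It was at 112, 76.1, 45.9, 60.4 and 107 CPM in no-stress, 94.0, 104, 83.6, 58.7 and 54.8 CPM in stress, and 72.3, 44.1, 39.3, 67.6 and 61.0 CPM in post-stress tumours. All groups overlapped. The log2 fold change was -0.02 in stress (95% interval from -0.59 to 0.55, adjusted p = 0.970) and -0.50 in post-stress tumours (interval from -1.07 to 0.08, adjusted p = 0.408). The highest no-stress values, 112 and 107 CPM, were in replicates 1 and 5, whose mouse shares were 30.2% and 29%, the highest of all libraries. Without these libraries the log2 fold change in stress was 0.38. The part of host RNA in this was not tested.

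Of the 12 other SLC39 importers, 7 were tested and 0 changed in any comparison, with a median log2 fold change of -0.14 in stress and -0.07 in post-stress tumours. SLC39A9, a Golgi transporter, was at 112 CPM in no-stress and 98.5 in stress tumours (adjusted p = 0.236). SLC39A10, a plasma membrane importer that MTF1 is known to repress, was at 59.98 and 54.3 CPM (adjusted p = 0.425). SLC39A1 had means of 1.05 to 1.63 CPM, and 69.1% of its exon bases are overlapped by other genes. The part of this overlap in its low level was not tested. Among all tested SLC30 and SLC39 genes, SLC30A1 and SLC39A14 alone were changed in the edgeR fit of all 15 libraries, SLC30A1 in stress only. The calls in stress are near the share over all genes, 10.5%, and do not show a response particular to these transporters. In post-stress tumours that share was 0.842%.

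**Figure D4:**
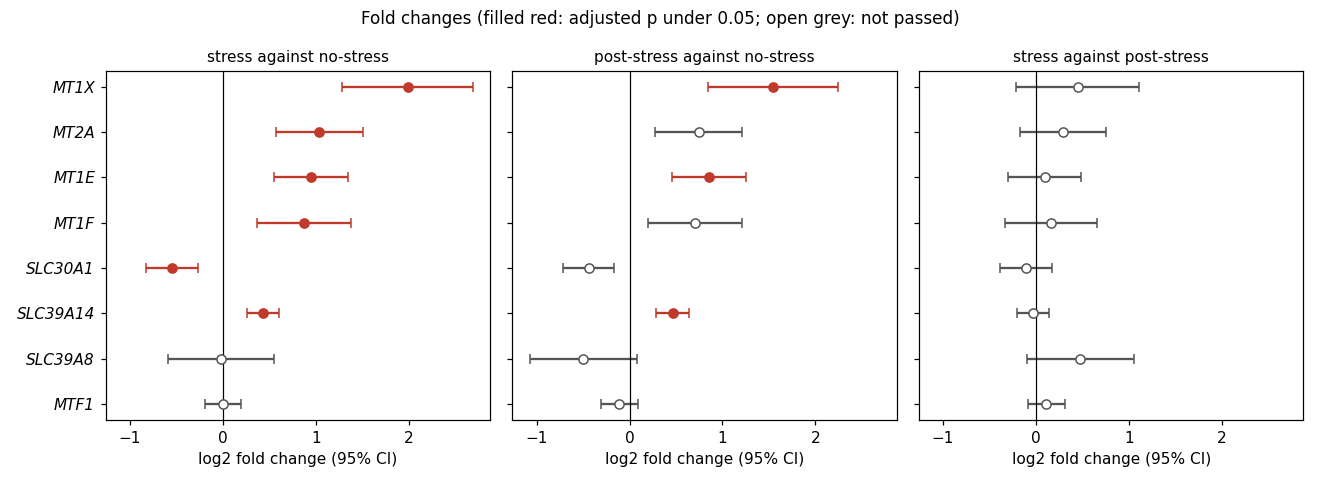
Log2 fold change of the 8 tested genes in the 3 comparisons with 95% intervals from the edgeR fit, filled where the adjusted p was under 0.05. In stress against no-stress tumours 5 genes are called higher and SLC30A1 lower, in post-stress against no-stress 3 are called higher, and in stress against post-stress none is called.

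Direct comparison of the restrained groups found 0 of the 8 genes changed by edgeR, 0 by DESeq2's Wald test, and 0 at an unadjusted p under 0.05. Over all genes, 0.0389% were changed (0.0259% higher in stress, 0.013% lower), and 1716 had an unadjusted p under 0.05. Adjusted p of the 8 genes ranged from 0.542 to 0.920. The log2 difference, stress minus post-stress, was 0.29 for MT2A (95% interval from -0.17 to 0.75), 0.45 for MT1X (-0.22 to 1.11) and 0.09 for MT1E (-0.30 to 0.48). It was 0.16 for MT1F (-0.33 to 0.66), -0.10 for SLC30A1 (-0.38 to 0.18), -0.03 for SLC39A14 (-0.20 to 0.14) and 0.48 for SLC39A8 (-0.10 to 1.05). These intervals leave room for differences of more than 1.5-fold in MT2A, MT1X, MT1F and SLC39A8. A call in stress and none in post-stress tumours, as for MT2A, MT1F and SLC30A1, is therefore not shown to be a difference between them.

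Counted by overlap alone, MT1X and SLC39A14 had every stress tumour above every no-stress tumour, and SLC30A1 every one below. Of all genes 4.09% lay wholly above and 4.7% wholly below. In post-stress tumours MT1X, MT2A and SLC39A14 lay wholly above and SLC30A1 wholly below, beside 1.57% and 1.89% of all genes.

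Levels of different genes are ordered here per kilobase. The shares of the metallothionein sum and the ratios between genes given above used CPM without a length. Their size would differ with lengths taken into account. Over the union of annotated exons, mean CPM per kb in no-stress tumours was 191 for MT2A, 33.2 for SLC30A1, 18.7 for MT1E, 13.6 for SLC39A14, 12.4 for SLC39A8, 7.27 for MT1X, 5.13 for MTF1 and 2.68 for MT1F. In stress tumours MT2A was at 391, MT1E at 36.0, MT1X at 28.8 and SLC30A1 at 22.8 CPM per kb. The stress ranges of MT1X (18.5–46.5) and SLC30A1 (19.1–25.4) overlapped. In no-stress tumours SLC39A14 and SLC39A8 did not differ beyond their SDs of 0.953 and 4.44, and neither did SLC39A8 and MT1X, whose ranges overlapped. The lengths used set part of this order. With the length of the first listed transcript, SLC39A14 was at 55.4 and MT1X at 28.6 CPM per kb in no-stress tumours, with SLC30A1 at 33.2 between them, while MT2A stayed first at 315.

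The profile of MT2A over the 15 tumours was set against that of every tested gene, as the root mean square difference between log2 CPM standardised to an SD of 1. The median over the genes ranked was 1.38. MT1E was at 0.442 (rank 12), MT1X at 0.529 (rank 68), MT1F at 0.705 (rank 416), MT1L at 0.716 and SLC39A14 at 0.816. MT1A, also expressed from the cluster, was farther away at 1.12 (rank 3796), MTF1 at 1.502 and SLC30A1 at 1.81 (rank 14983 of 15435), the profile most unlike MT2A among these genes. The 5 nearest genes outside the family were DZIP1L (0.347), TPRA1 (0.348), ABTB1 (0.363), PIM1 (0.371) and SPSB1 (0.378). PIM1, a kinase gene known as a STAT3 target, was at 17.0, 38.96 and 32.0 CPM in no-stress, stress and post-stress tumours. These distances describe 15 tumours that share 3 groups, depth and scaling, and carry no test.

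Of 8 other genes listed as MTF1 targets, 7 were tested and 1 was changed in each comparison with no-stress tumours, beside 10.5% of all genes in stress and 0.842% in post-stress tumours. NDRG1, a stress-induced gene that hypoxia also raises, was changed, from 233 ± 90.7 to 880 ± 134 CPM in stress (log2 fold change 1.92, adjusted p = 0.00323) and to 841 ± 338 CPM in post-stress tumours (adjusted p = 0.0103). The other 6, among them HMOX1 (22.1 CPM without and 22.9 with stress), GCLC, TXNRD2, SELENOH and CSRP1, did not pass in either comparison. The median log2 fold change of the 7 was 0.04 in stress and 0.12 in post-stress tumours. The 7 include SLC39A10, which MTF1 is known to repress, so the list mixes directions.

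Genes that handle copper and iron, which metallothioneins and the SLC39 importers also touch, were listed too. Of 20 tested, 4 fell in stress tumours, CP rose and 15 did not pass, beside 5.22% of all genes lower and 5.23% higher. In post-stress tumours 0 passed, beside 0.842% of all genes changed. SLC31A1, the copper importer, went from 71.8 to 58.0 CPM, a log2 fold change of -0.31 (adjusted p = 0.0146). TFRC, the transferrin receptor, went from 189 to 123 CPM (-0.62, adjusted p = 0.0223), and SCO1, a copper chaperone of mitochondria, from 61.4 to 48.2 CPM (-0.35, adjusted p = 0.0180). ACO1, an iron-responsive RNA-binding protein, fell by 0.51 on the log2 scale (adjusted p = 0.0474). CP, ceruloplasmin, went from 1445 to 2180 CPM (0.59, adjusted p = 0.0339). Ferritin genes FTH1 and FTL did not pass, with 2077 and 2513 CPM for FTH1 and 6917 and 5587 CPM for FTL. The median over the 20 genes was -0.09. Of 7 tested genes for zinc enzymes and sensors, CA12, a zinc-dependent carbonic anhydrase, was changed in stress, from 1320 to 1827 CPM (adjusted p = 0.0180), and none in post-stress tumours. That 1 of 7, like the 1 of 20 for CP, is near the share over all genes.

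Genes that read out signals known to induce metallothioneins were set beside them. Over all human genes 10.5% were changed in stress and 0.842% in post-stress tumours, and these small lists were not tested as sets. Of 5 glucocorticoid readouts, DUSP1, FKBP5 and TSC22D3 rose in stress tumours and FKBP5 in post-stress tumours, while PER1 and KLF9 passed in neither. FKBP5, which encodes a chaperone of the glucocorticoid receptor, was at 101, 214 and 273 CPM in the 3 groups (adjusted p = 0.0284 and 0.0353), and TSC22D3 at 80.1, 156 and 157 CPM (0.0330 and 0.103). Of 4 hypoxia readouts, NDRG1, VEGFA and ADM rose in stress and NDRG1 in post-stress tumours, where ADM had an adjusted p of 0.0520 and VEGFA of 0.0561. CA9 passed in neither, at 61.0, 77.5 and 75.3 CPM in the 3 groups. Of 5 readouts of interleukin-6 and STAT3, SOCS3 rose in both, from 66.8 to 129 CPM in stress (adjusted p = 0.00168) and 118 CPM in post-stress tumours (adjusted p = 0.0104), and IL6 rose in stress. CEBPD, STAT3 and LCN2 passed in neither, and the means of LCN2 were 14.6, 11.9 and 8.53 CPM in the 3 groups. Of 5 readouts of NRF2, an oxidant sensor, GCLM fell by 0.36 on the log2 scale in stress (adjusted p = 0.0106) and none rose. Of 4 heat shock genes 2 were tested and 0 changed. The others, HSPA1A and HSPA1B, did not pass the filter on low counts. HSPA1A had means of 0.262, 0.780 and 0.662 CPM in no-stress, stress and post-stress tumours, and HSPA1B of 0.153, 0.775 and 0.223 CPM. Members of these lists changed in the same tumours as the metallothioneins, and their part in the metallothionein changes was not tested.

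The share of mouse counts differed between tumours and was set beside these results. With that share as a covariate, all 6 calls in stress stayed, and in post-stress tumours 1 of 3 (SLC39A14). Leaving out no-stress replicates 1 and 5, an alternative chosen after the data were seen, left MT1X, MT2A and SLC39A14 called in stress and SLC39A14 in post-stress tumours, with fewer control tumours. Of the libraries left out, no-stress replicate 1 (30.2% mouse counts) had MT1X at 12.8 CPM and no-stress replicate 5 (29%) at 18.9 CPM, the highest of its group. The log2 fold change of MT1X in stress without both libraries was 2.22.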

How the data were processed

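RNA from 15 A549 xenograft tumours, 5 per group, was analysed, with groups and replicate numbers from the sample titles. Per the submitters' processing notes, the authors trimmed reads with Trimmomatic (0.39), aligned them with HISAT2 (2.2.1) to hg38 and mm10 and counted them with featureCounts (2.0.6). The deposited table holds raw counts for 60649 human and 56941 mouse genes, and 60507 human identifiers matched a symbol. Strandedness, annotation release and joint or separate alignment to the genomes: not given in the sources used here.

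Human counts were filtered with filterByExpr (15435 genes, 99.8% of human counts), scaled with TMM and fitted for all 15 libraries with edgeR's robust quasi-likelihood model (edgeR 4.0.16, limma 3.58.1, R 4.3.3), with Benjamini-Hochberg adjustment over all tested genes and a threshold of 0.05. The SE is the log2 fold change divided by the square root of F. The procedure was tested on simulated counts. Alternatives were other scaling factors, limma-voom, the Wald test of DESeq2 (1.42.0), other filters, only the groups compared, the replicate number as a block, the mouse share as a covariate, both species in 1 fit, and leaving out each library. Replicate numbers did not pair tumours: correlations of same-numbered tumours' deviations ranged from -0.191 to 0.124. Coordinates, lengths and coding sequences came from GENCODE 29, and promoters from RefSeq (GRCh38.p14).

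The members and gene lists were chosen with earlier results of these data known. All 10 members are named, as are the other metallothioneins, changed SLC30 and SLC39 genes with a few unchanged ones for their levels, up to 4 genes per other list by smallest p with a few chosen after their values were seen (HMOX1, GCLC, TXNRD2, SELENOH, CSRP1, SLC39A10, FTH1, FTL, ACO1), and the 5 genes most like MT2A. COL1A1, DCN, PECAM1, HSPA1A, HSPA1B, ALDH1A1, KRT18, CA9, PER1, KLF9, CEBPD, STAT3 and LCN2 were also named after their values were seen.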

Additional observations from a re-analysis of the deposited data

How the results depend on the processing

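Under the alternatives run, no gene of the set changed direction in a comparison where it was called. Uncalled differences near 0 changed sign in some fits: MTF1 and SLC39A8 against no-stress, and MT1E and SLC39A14 between the restrained groups. In stress against no-stress tumours 6 genes of the set were called, 2 with both species in 1 fit and 3 without no-stress replicates 1 and 5, and leaving out 1 library gave 4 to 6. Human genes changed numbered 1613, and 990 with the replicate block, 124 with both species in 1 fit, 546 without no-stress replicates 1 and 5, and 661 to 1834 with 1 library left out. In post-stress against no-stress tumours 3 genes of the set were called, 5 by DESeq2's Wald test, and 1 with no filter, with only the groups compared, with the mouse share as covariate, or without no-stress replicates 1 and 5. Leaving out 1 library gave 1 to 3. Human genes changed numbered 130 there, and 504 by DESeq2's Wald test, 49 with only the groups compared, 57 with the replicate block, 38 with the mouse share as covariate, 29 with both species, 32 without no-stress replicates 1 and 5, and 37 to 144 with 1 library left out. Between the restrained groups 6 human genes were changed, and 207 by DESeq2's Wald test, 36 with no filter, 1 with only the groups compared, and 0 with the replicate block, the mouse share or both species, with 0 to 189 when 1 library was left out. Of the set, 0 were called there in every fit. The cause of these shifts was not tested. The replicate block left 6 and 2 genes of the set called against no-stress, and the best match of a tumour was its own number in 1 of 15 cases. MT1G and MT1M were at or near 0 counts in every fit, and the reason was not tested.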
